A study of Mus musculus with 2 samples.

Results

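Antigen receptor signals switch on a small set of transcription factor and inhibitor genes within T cells, and 10 of them are described here: Egr1, Egr2, Egr3, Nr4a1, Nr4a2, Nr4a3, Irf4, Irf8, Nfkbid and Nfkbia. They were chosen by symbol, and all 10 were found among the 31053 genes of the count matrices. The data are 2 single-cell libraries made with the 10x Genomics kit that reads the 5′ end of transcripts. The cells came from thymic lobes of wild-type C57BL/6 embryos at embryonic day 15, which the labels say were kept in culture for 2 days without treatment. Immature (CD24+) γδ T cells were then sorted on TMRE, a dye that gathers in mitochondria according to their membrane potential. The bright cells gave the TMREhi library and the dim cells the TMRElo library. Both groups share the strain, genotype, embryonic age, culture and lack of treatment, and how many embryos or lobes were pooled is not stated. The series title ties the sort to the question of how metabolism bears on effector fate in γδ T cells.

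In T cells, EGR1, EGR2 and EGR3 are zinc finger factors whose genes respond within minutes to the ERK arm of the T cell receptor cascade. NR4A1 (Nur77), NR4A2 and NR4A3 are orphan nuclear receptors induced by calcium and ERK signals, and Nr4a1 is a customary reporter of recent receptor engagement. The strength of γδ receptor signals in the fetal thymus, read through Egr genes and their target Id3, is known to bear on which effector fate a γδ T cell takes. IRF4 is a further factor graded by signal strength, and IRF8 is a relative best known from B cells and myeloid cells. Nfkbia encodes IκBα, which holds NF-κB in the cytoplasm and is itself an NF-κB target, and Nfkbid encodes IκBNS, an IκB protein that acts in the nucleus.

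There was 1 library per group, so no test between groups was possible and no p-value is given. All intervals are exact 95% intervals (Poisson for UMIs, binomial for shares, conditional binomial for ratios) and cover counting error only. A UMI is a molecular tag that counts 1 captured RNA molecule, and levels are given as CPM, the UMIs of a gene per 1000000 UMIs of the same barcodes. How often RNA from outside the cell gave a UMI of these genes was not measured, since no cell type that lacks them was at hand. Barcodes, the droplets taken as cells, were described in 2 classes among those with at least 500 genes. In the high-ribosomal class at least 15% of UMIs came from ribosomal protein genes (292 TMREhi barcodes with a median of 8356.5 UMIs, and 16 TMRElo barcodes with 4071). The low-ribosomal class lay below that share (733 TMREhi barcodes with a median of 1555 UMIs, and 117 TMRElo barcodes with 1037). A stricter set, called retained, had at most 10% mitochondrial UMIs (317 TMREhi barcodes with 2905666 UMIs and 34 TMRElo barcodes with 105080). The median mitochondrial share was 16.9% and 14.4% (TMREhi and TMRElo) in the low-ribosomal class and 3.55% and 3.92% in the high-ribosomal class, and its part in the results was not tested. The libraries shared 0 barcodes. γδ T cell markers (Trdc, the Tcrg constant genes, Cd3e, Cd3g, Sox13 and Il7r) were all 8 detected in these sets, except that Sox13 was at 0 in high-ribosomal TMRElo barcodes, and summed to between 2944 and 4207 CPM. The low-ribosomal TMREhi barcodes also held markers of αβ lineage thymocytes, at 2653 CPM against 1786 in TMRElo, where Rag2 and Ptcra were at 0. Themis alone gave 148 of those 241 TMRElo UMIs. Of the 8 such markers at 20 CPM or more in the mean of both libraries, 6 were at least 2-fold higher in TMREhi with an interval without 1. These were Arpp21, Cd4, Cd8b1, Dntt, Ptcra and Rag1, and the other 2 had the lower value in TMREhi. Of all 7240 genes at that level, 7.51% were higher in TMREhi by the same rule. In the other sets the markers summed to less in TMREhi: 448 CPM against 533 in the high-ribosomal class, and 553 against 733 among retained barcodes. Of 6 red cell genes, all were at 0 in both libraries.

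The sequences upstream of 5 of the genes are printed to show matches to known control motifs. RefSeq's promoter table (GRCm38.p6) held 8 of the 10 genes, with 15 start sites, and the 250 bases before each start site were searched on both strands for 5 motifs. Capitals mark the matches, and the stretches shown were chosen because they hold one. Egr2 lies at chr10:67535475-67542188, on the plus strand, and the stretch before 1 of its start sites (chr10:67537619-67537868) holds a CArG box, the site bound by serum response factor, from 72 to 63 bases before the start. Nr4a1 (chr15:101254269-101274795, plus strand) is shown at chr15:101266596-101266845, with 1 GC-rich EGR site (GCGNGGGCG) from 60 to 52 bases before the start, on the minus strand. Nr4a2 (chr2:57106830-57124003, minus strand) is shown at chr2:57124004-57124253, with an EGR site from 74 to 66 bases before the start. Nfkbid (chr7:30421732-30428746, plus strand) is shown at chr7:30422156-30422405, with 2 κB sites, bound by NF-κB, and, from 51 to 44 bases before the start, the cyclic AMP response element TGACGTCA. Nfkbia (chr12:55489410-55492647, minus strand) is shown at chr12:55492648-55492897, with 1 κB site from 29 to 20 bases before the start.
Egr2: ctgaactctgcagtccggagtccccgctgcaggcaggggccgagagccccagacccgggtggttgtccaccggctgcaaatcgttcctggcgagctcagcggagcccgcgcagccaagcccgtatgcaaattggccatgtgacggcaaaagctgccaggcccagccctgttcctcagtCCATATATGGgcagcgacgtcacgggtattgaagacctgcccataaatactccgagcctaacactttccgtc
Nr4a1: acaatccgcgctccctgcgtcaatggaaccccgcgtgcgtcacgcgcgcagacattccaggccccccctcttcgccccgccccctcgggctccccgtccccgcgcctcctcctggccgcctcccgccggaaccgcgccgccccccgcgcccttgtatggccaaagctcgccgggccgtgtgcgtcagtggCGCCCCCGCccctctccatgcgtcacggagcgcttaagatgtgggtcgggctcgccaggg
Nr4a2: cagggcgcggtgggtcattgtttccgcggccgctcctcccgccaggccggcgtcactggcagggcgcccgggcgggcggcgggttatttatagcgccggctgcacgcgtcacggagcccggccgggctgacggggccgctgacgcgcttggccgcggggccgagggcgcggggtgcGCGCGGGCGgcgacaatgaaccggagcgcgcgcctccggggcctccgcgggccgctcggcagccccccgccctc
Nfkbid: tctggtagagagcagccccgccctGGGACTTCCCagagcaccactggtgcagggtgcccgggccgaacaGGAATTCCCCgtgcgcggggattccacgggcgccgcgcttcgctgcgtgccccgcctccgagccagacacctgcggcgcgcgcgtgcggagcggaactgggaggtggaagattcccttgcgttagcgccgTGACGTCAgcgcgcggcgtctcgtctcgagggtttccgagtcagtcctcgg
Nfkbia: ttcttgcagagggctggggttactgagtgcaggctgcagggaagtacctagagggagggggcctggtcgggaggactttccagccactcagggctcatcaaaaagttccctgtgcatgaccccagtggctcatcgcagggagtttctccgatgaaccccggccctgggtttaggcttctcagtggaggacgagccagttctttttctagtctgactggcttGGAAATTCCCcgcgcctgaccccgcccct

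Among the 32851 promoter windows of the same length in that table, a CArG box stood in 1.47%, the cyclic AMP response element in 1.55%, a κB site in 3.90% and an EGR site in 4.70%. The AP-1 site TGANTCA, the 5th motif searched, stood in 6.75% of windows and in none of those of the 8 genes. These matches are descriptions of the letters and not evidence that a factor bound there in these cells.

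The EGR and NR4A genes were detected in a minority of barcodes of both libraries. In retained TMREhi barcodes Egr1 had 160 UMIs in 56 of 317 barcodes (17.7%, 13.6–22.3), which is 55.1 CPM (46.9–64.3). In retained TMRElo barcodes it had 2 UMIs, both in 1 of 34 barcodes, or 19.0 CPM (2.31–68.8). The ratio of 2.89 had an interval that included 1 (0.788–24.1). Egr3 had 19 UMIs in TMREhi and 0 in TMRElo, Nr4a1 72 and 0, Nr4a2 22 and 0, and Nr4a3 5 and 0. For these 4 genes the TMREhi level, at most 24.8 CPM, lay below the 28.5 CPM that 3 UMIs would make in TMRElo, so no fold was computed and a difference was not detectable at this depth.

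Egr2, which acts in thymocyte selection, went the other way among retained barcodes. It had 9 UMIs in TMREhi (3.10 CPM, 1.42–5.88) and 4 in TMRElo (38.1 CPM, 10.4–97.5). That is 12.3-fold higher in TMRElo (2.77–44.0), on 4 UMIs in 3 barcodes. Only Egr1, Egr2 and Nfkbia reached 20 CPM in the mean of both libraries, the level set for a call, and Egr2 reached it through TMRElo alone. With a call defined as a difference of at least 2-fold and an interval without 1, Egr2 was lower in TMREhi and no member was higher. Over all 5980 genes at that level, 17.6% were called lower and 3.76% higher in TMREhi, so calls in the direction of Egr2 were common. The call rests on few UMIs: under a filter of at least 1000 genes and at most 5% mitochondrial UMIs, which kept 9 TMRElo barcodes, Egr2 had 9 UMIs against 0. Of the 4 retained TMRElo UMIs, 3 lay in barcodes of 4770 and 4168 UMIs with 6.25% and 9.07% mitochondrial UMIs, above that limit. Without the retained barcodes that Scrublet called as doublets, Egr2 had 9 UMIs against 2, and its value was still higher in TMRElo.

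Egr1, the EGR gene with the most UMIs, had the higher value in TMREhi among retained, high-ribosomal and low-ribosomal barcodes. In high-ribosomal TMREhi barcodes it had 161 UMIs in 57 of 292 barcodes (55.1 CPM, 46.9–64.3), and in TMRElo 0 UMIs in 16 barcodes, where the upper limit was 43.7 CPM. Over all barcodes with at least 500 genes it had 230 UMIs against 3, a ratio of 3.97 (1.34–19.4). In low-ribosomal barcodes with a γ V segment UMI it had 48 against 1, a ratio of 6.32 (1.08–255). In those without one it had 21 against 2. There the value was higher in TMRElo, with a ratio of 0.581 and an interval that included 1 (0.142–5.11). The intervals treat UMIs as separate draws, although up to 15 UMIs of Egr1 came from a single barcode. By barcodes, 19.5% of high-ribosomal TMREhi barcodes had Egr1 (15.1–24.5), and 0 of 16 TMRElo barcodes allowed up to 20.6%, at a lower median depth.

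Summed over the 6 EGR and NR4A genes, the libraries did not differ beyond counting error in either class as a whole. In high-ribosomal barcodes the sum was 99.2 CPM in TMREhi (88.1–111; 290 UMIs) and 35.6 in TMRElo (7.33–104; 3 UMIs, all Egr2), with a ratio of 2.79 (0.945–13.6). In the high-ribosomal barcodes with a γ V UMI, 273 and 14 in number, 282 UMIs stood against 1, and the ratio of 7.63 had an interval above 1 (1.36–303). In low-ribosomal barcodes it was 136 CPM in TMREhi (117–158; 179 UMIs) and 178 in TMRElo (114–265; 24 UMIs), with a ratio of 0.767 (0.499–1.23). With a γ V UMI the low-ribosomal ratio was 0.974 (0.566–1.80). Without one, 68 UMIs stood against 9, and the ratio of 0.418 had an interval below 1 (0.208–0.954). When barcodes with a Rag1 UMI were left out of these as well, the ratio was 0.739 (0.365–1.69). At a fixed depth of 1000 UMIs per barcode, drawn at random from each, at least 1 of the 6 genes was seen in 24 of 288 high-ribosomal and 53 of 578 low-ribosomal TMREhi barcodes (8.33%, 5.41–12.1, and 9.17%, 6.94–11.8). In TMRElo it was seen in 1 of 16 and 6 of 68 barcodes (6.25%, 0.158–30.2, and 8.82%, 3.31–18.2). The shares of the classes overlapped at this depth, whereas at full depth they read 30.1% and 12.3% in the high- and low-ribosomal TMREhi barcodes.

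**Figure D1:**
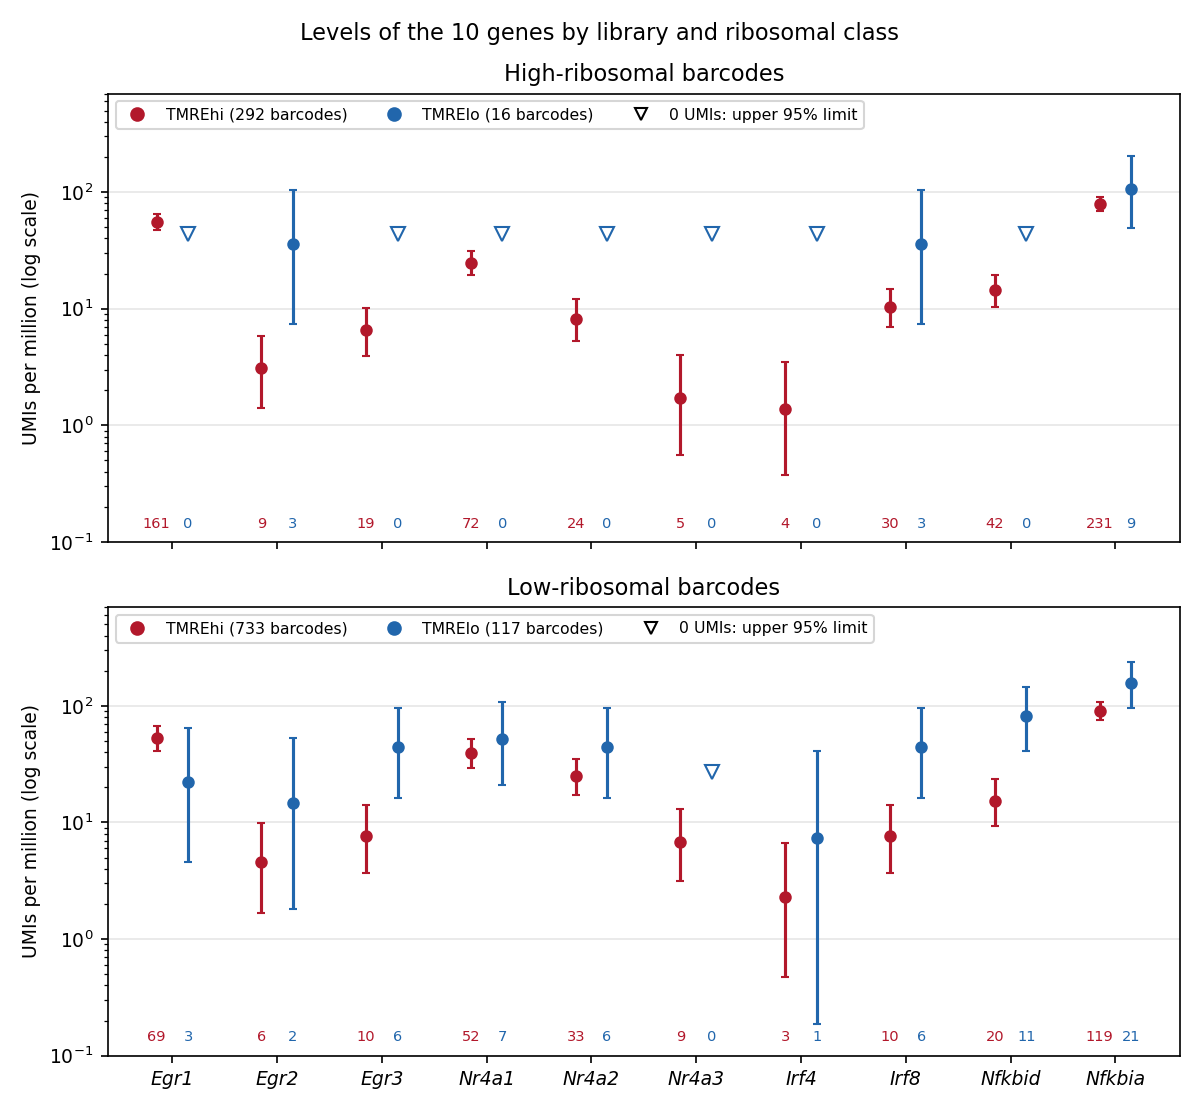
CPM (log axis) of each gene in TMREhi (red) and TMRElo (blue), for high-ribosomal barcodes above and low-ribosomal barcodes below; bars are exact 95% counting intervals, open triangles the upper limit of a gene with 0 UMIs, and the figures along the base the UMIs. In the low-ribosomal class the TMRElo values of Egr3, Irf8 and Nfkbid lie above those of TMREhi, with 6, 6 and 11 UMIs.

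Within the low-ribosomal class the EGR genes differed among themselves. Egr1 had 69 UMIs in 46 TMREhi barcodes (52.6 CPM, 40.9–66.5) and 3 in 2 TMRElo barcodes (22.2, 4.58–65.0). Egr2 had 6 UMIs against 2, which is 4.57 and 14.8 CPM with overlapping intervals. Egr3, which acts beside Egr2, had 10 UMIs in 8 of 733 TMREhi barcodes (7.62 CPM) and 6 in 3 of 117 TMRElo barcodes (44.5, 16.3–96.8), or 5.83-fold higher in TMRElo (1.74–17.7). In barcodes that also had a γ V segment UMI, Egr3 had 8 UMIs against 3, which left it 2.85-fold higher in TMRElo, with an interval that included 1 (0.487–11.9).

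None of the 3 NR4A genes differed between the libraries beyond counting error in the low-ribosomal class. Nr4a1 had 52 UMIs in TMREhi (39.6 CPM, 29.6–52.0) and 7 in TMRElo (51.9, 20.9–107), of which 6 came from 1 barcode. Without the barcode with the most Nr4a1 in each library the counts were 44 and 1, and the log2 ratio (TMREhi over TMRElo) turned from -0.38 to 2.04. Nr4a2 had 33 UMIs in 24 TMREhi barcodes and 6 UMIs in 6 TMRElo barcodes, or 25.1 and 44.5 CPM. Nr4a3 had 9 UMIs in TMREhi and 0 in TMRElo, where up to 27.3 CPM is compatible with a count of 0. In this class 8 of the 10 genes had a lower value in TMREhi than in TMRElo, the exceptions being Egr1 and Nr4a3. Among retained barcodes 3 of 10 had the lower value. There Egr3, Nr4a1, Nr4a2, Nr4a3 and Irf4 had 0 TMRElo UMIs, and their direction was not a detectable difference.

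Of the 178 TMREhi barcodes with an EGR or NR4A UMI, 140 had UMIs of 1 of the 6 genes only, and 38 had at least 2. The barcodes with the most UMIs are described next, chosen for that. The TMREhi barcode with the most held 29 such UMIs among 5350: 15 of Egr1, 2 of Egr2, 5 of Egr3, 3 of Nr4a1 and 4 of Nr4a2. Its leading γ segment was Tcrg-V6. The next held 25 of 26839 UMIs, with Egr1 at 13 and Nr4a1 at 7, and the third 21 of 12538, with Egr1 at 15 and Nr4a1 at 5. Some low-ribosomal barcodes held 10 or 11 such UMIs at lower depth. One with 1047 UMIs held 8 of Nr4a1, 2 of Nr4a3 and 1 of Egr1, and one of 1985 UMIs held 5 of Nr4a2 beside Egr1, Egr2 and Nr4a1. One of 1310 UMIs, led by Tcrg-V5, held all 6 genes, with 10 UMIs in all. In TMRElo the barcode with the most had 8 of 1554 UMIs, of which 6 were Nr4a1, and it also held 6 UMIs of Nfkbia. None of the barcodes plotted by their EGR and NR4A UMIs held Irf4, and few held Irf8 or Nfkbid.

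**Figure D2:**
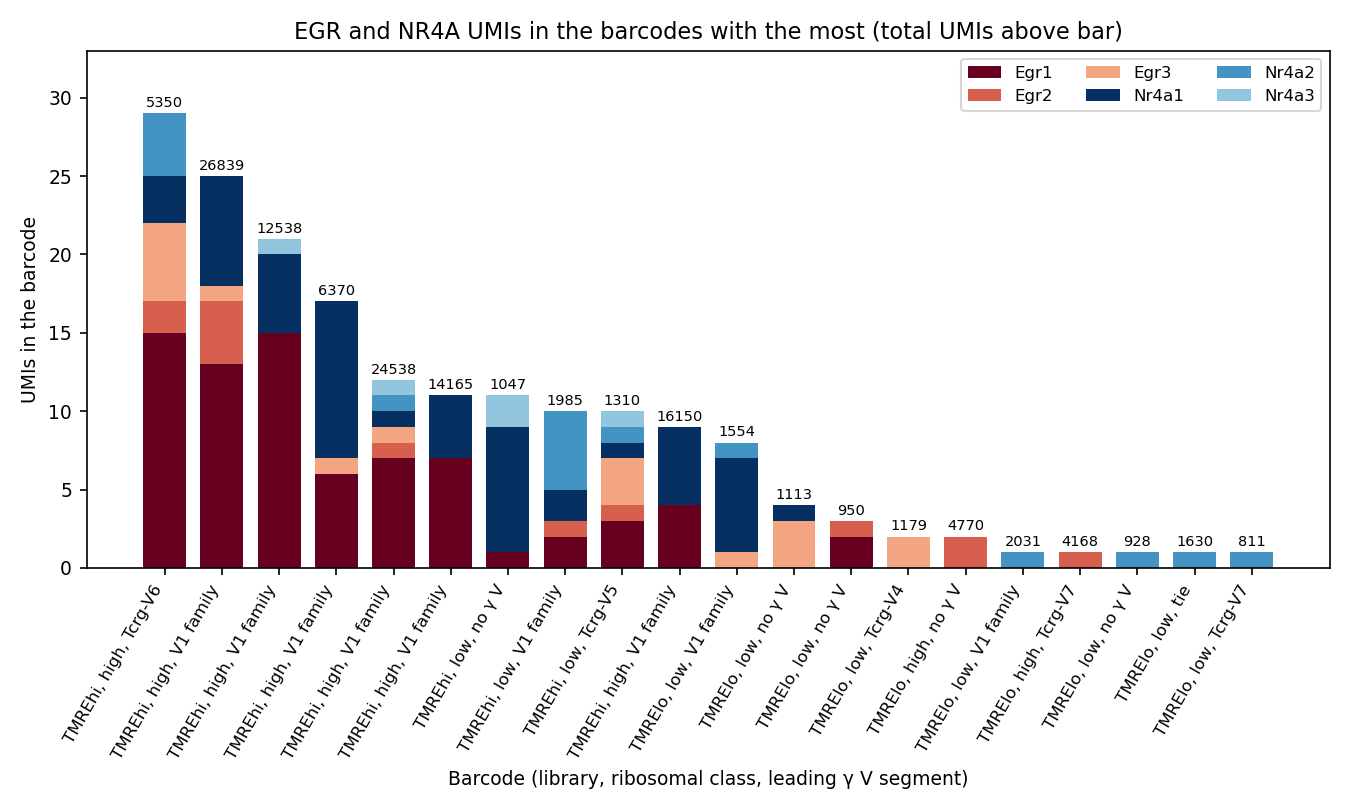
UMIs of Egr1, Egr2, Egr3 (reds), Nr4a1, Nr4a2 and Nr4a3 (blues) in the 10 TMREhi and 10 TMRElo barcodes with the most, each bar 1 barcode with its ribosomal class (high or low) and leading γ V segment below and its total UMIs above. The highest TMREhi bar holds 29 UMIs and the highest TMRElo bar 8.

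Egr1 was detected in a larger share of the barcodes with Nr4a1 than of those without it, although most barcodes with 1 of these genes lacked the other. At full depth Egr1 was detected in 13 of 31 high-ribosomal TMREhi barcodes with Nr4a1 (41.9%, 24.5–60.9) and in 16.9% (12.5–22.0) of the 261 without. In low-ribosomal barcodes it was detected in 10 of 29 with Nr4a1 (34.5%, 17.9–54.3) and in 5.11% (3.61–7.01) of 704 without. Since a deeper barcode shows more of every gene, the pair was counted again at 1000 UMIs per barcode. Egr1 then stood in 3 of 8 high-ribosomal barcodes with Nr4a1 (37.5%, 8.52–75.5) against 2.86% without (1.24–5.55), and in 4 of 18 low-ribosomal barcodes (22.2%, 6.41–47.6) against 3.75% (2.34–5.68). In both classes the interval with Nr4a1 lay above the interval without it, on 3 and 4 barcodes. At 2000 UMIs per barcode the high-ribosomal counts were 4 of 12 (33.3%, 9.92–65.1) against 6.77%, and the low-ribosomal ones 1 of 11 (9.09%, 0.230–41.3) against 6.99%, so at that depth the difference was not detectable.

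Of the rarer genes, Egr2 lay mostly beside Nr4a1 at full depth, where a deeper barcode shows more of every gene. Egr2 was detected in 5 TMREhi barcodes of each class, and in each class 4 of the 5 held Nr4a1 as well. Egr3 was detected in 12 high-ribosomal TMREhi barcodes, of which 7 held Egr1 and 7 held Nr4a1, against 17.9% and 8.57% of the barcodes without Egr3. Nr4a2 was detected in 19 high-ribosomal TMREhi barcodes, 9 of them with Egr1 (47.4%, 24.4–71.1). Of the 88 high-ribosomal TMREhi barcodes with any of the 6 genes, 24 had at least 2 and 9 at least 3. Of the 90 low-ribosomal ones, 76 had 1 only, 14 had at least 2 and 8 at least 3. Nr4a2 was detected in 24 low-ribosomal TMREhi barcodes, so many of these held none of the other 5 genes. In TMRElo 13 barcodes with at least 500 genes had any of the 6, and 3 had at least 2. These counts come from cells of 1 library and were not tested across animals.

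For Nfkbia, no difference between barcodes with and without Egr1 or Nr4a1 was detectable. It was detected in 27 of 57 high-ribosomal TMREhi barcodes with Egr1 (47.4%, 34.0–61.0) and in 41.7% (35.3–48.3) of those without. In low-ribosomal barcodes the shares were 5 of 46 with Egr1 (10.9%, 3.62–23.6) and 14.3% (11.7–17.1) without. With Nr4a1 the high-ribosomal share was 14 of 31 (45.2%, 27.3–64.0) against 42.5% (36.5–48.8), and the low-ribosomal share 3 of 29 (10.3%, 2.19–27.4) against 14.2% (11.7–17.0). The intervals overlapped in all 4 comparisons.

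**Figure D3:**
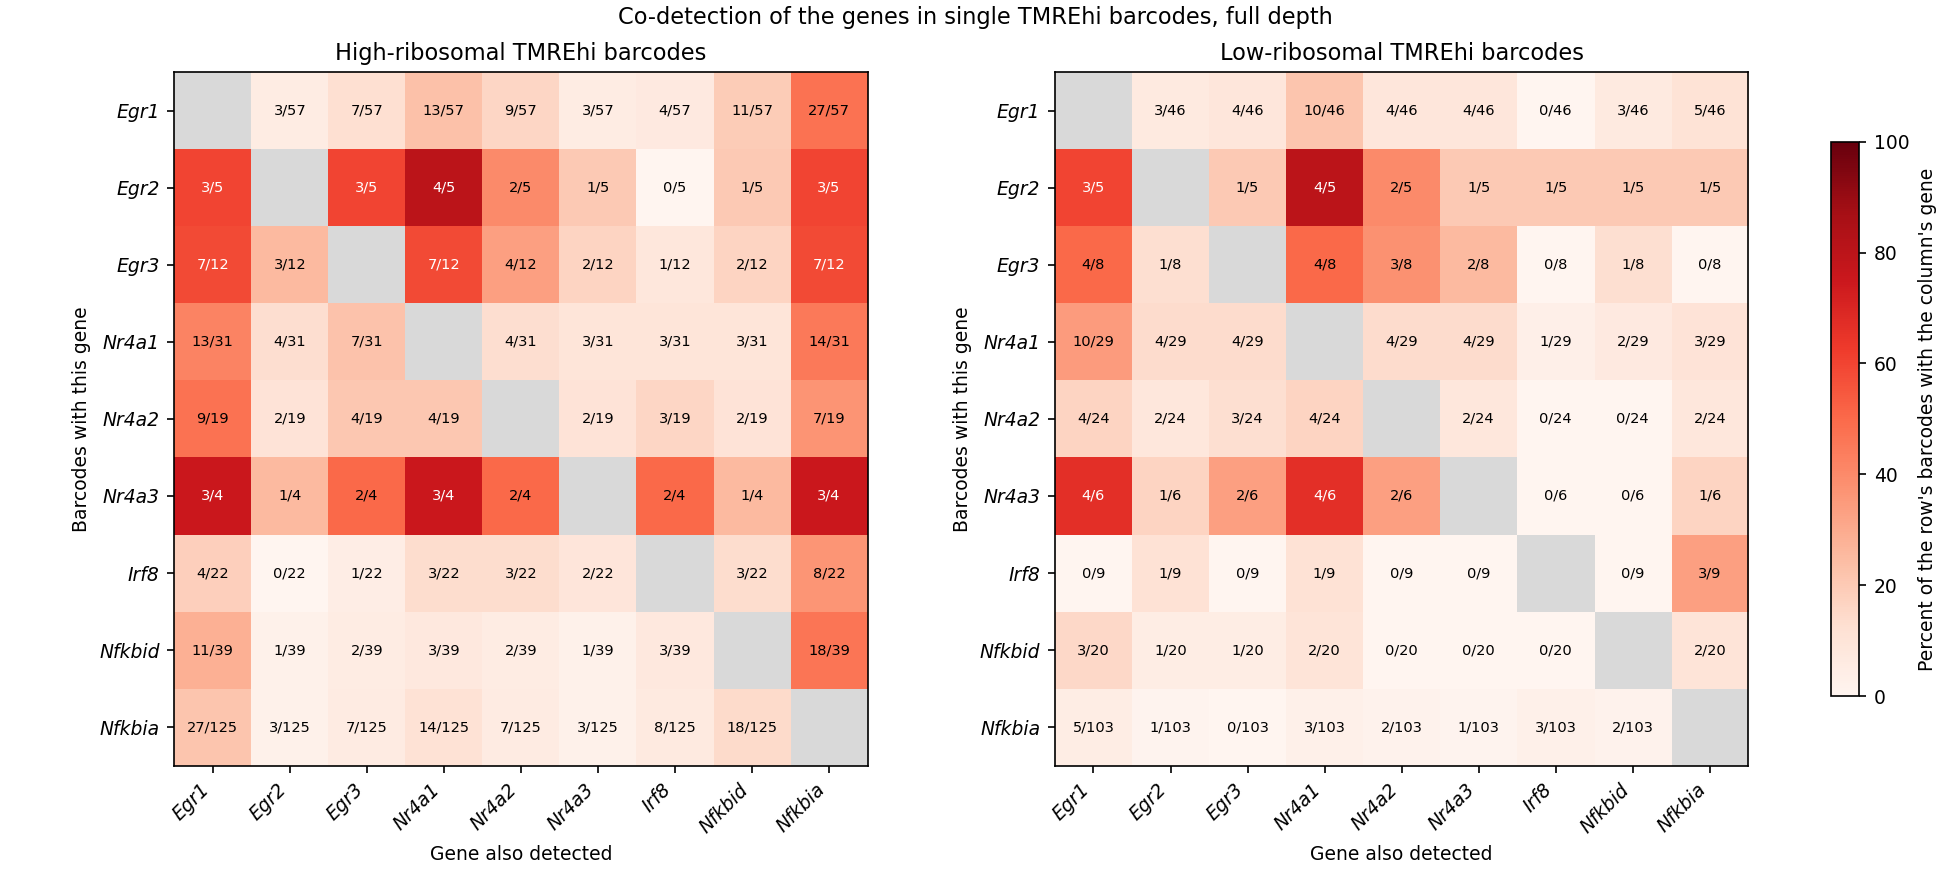
Co-detection in TMREhi barcodes at full depth, high-ribosomal on the left and low-ribosomal on the right; each cell gives the barcodes with both genes over those with the row's gene, and the colour that share in percent. Egr2, Egr3 and Nr4a3 rows are dark in the Egr1 and Nr4a1 columns, and the Nfkbia row is pale in them.

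Barcodes were next grouped by their leading γ V segment, the segment of the rearranged γ receptor with the most UMIs, which tells apart the waves of γδ T cells. Among low-ribosomal TMREhi barcodes the 206 led by the V1 family (Trgv2, Tcrg-V1 and Tcrg-V3 summed) held 138 CPM of EGR and NR4A (106–177), in 33 barcodes. The 64 led by Tcrg-V4 held 91.4 (45.6–164) and the 54 led by Tcrg-V6 83.1 (33.4–171), neither apart from the V1 family beyond counting error. Nr4a1 had 0 UMIs in the Tcrg-V6 group, where 43.8 CPM is the upper limit, and 24.9 CPM in the V1 family.

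The Tcrg-V5 group, which holds the forerunners of skin γδ T cells, had the highest value, on few cells. Its 30 barcodes held 23 EGR and NR4A UMIs (534 CPM, 339–802), of which Nr4a1 gave 7, Egr1 5 and Nr4a2 4. These lay in 5 barcodes, 16.7% of the group (5.64–34.7), against 16.0% (11.3–21.8) in the V1 family. The intervals overlapped, at unlike median depths of 1281.5 and 1973 UMIs. The Tcrg-V5 barcode with 10 UMIs made up much of the level, and without it the group stood at 302 CPM. With at least 2 UMIs required of the leading segment, 21 barcodes remained and the level was 63.8 CPM, from 2 UMIs. At 1000 UMIs per barcode, 5 of 26 barcodes had any of the 6 genes (19.2%, 6.55–39.4).

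In the high-ribosomal TMREhi class only the V1 family and Tcrg-V6 had at least 20 barcodes. The 198 V1 family barcodes held 100.2 CPM of EGR and NR4A (87.7–114), spread over 72 barcodes (36.4%). The 39 Tcrg-V6 barcodes held 184 CPM (130.2–253), but 29 of those 38 UMIs came from 1 barcode and the rest from 3. Their shares at 1000 UMIs per barcode were 19 of 198 (9.60%, 5.88–14.6) and 2 of 38 (5.26%, 0.644–17.7), with overlapping intervals. Thus the Tcrg-V6 level rests on 1 barcode, and the V1 family level on many. Nr4a1 was detected in 27 of the V1 family barcodes and in 1 of the Tcrg-V6 barcodes, at median depths of 10218.5 and 4856 UMIs.

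Barcodes with no γ V UMI differed by Rag1, a recombinase gene that marks thymocytes still rearranging their receptors. Of 308 such low-ribosomal TMREhi barcodes, 159 had a Rag1 UMI and 149 did not, with median depths of 1085 and 1304 UMIs. The EGR and NR4A level was 32.2 CPM (13.9–63.5; 8 UMIs in 8 barcodes) with Rag1 and 242 (185–312; 60 UMIs in 23 barcodes) without. Of the 60 UMIs without Rag1, 11 came from 1 barcode, 8 of them of Nr4a1. Nr4a1 had 3 UMIs with Rag1 and 28 without, and Egr1 4 and 17. Nfkbia did not share this pattern: it stood at 129 CPM with Rag1 (88.2–182) and 84.8 without (52.5–130). At 1000 UMIs per barcode the EGR and NR4A shares were 3 of 85 (3.53%, 0.734–9.97) and 15 of 110 (13.6%, 7.84–21.5), and these intervals overlapped. TMRElo had 25 low-ribosomal barcodes without a γ V UMI, none of them with Rag1.

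**Figure D4:**
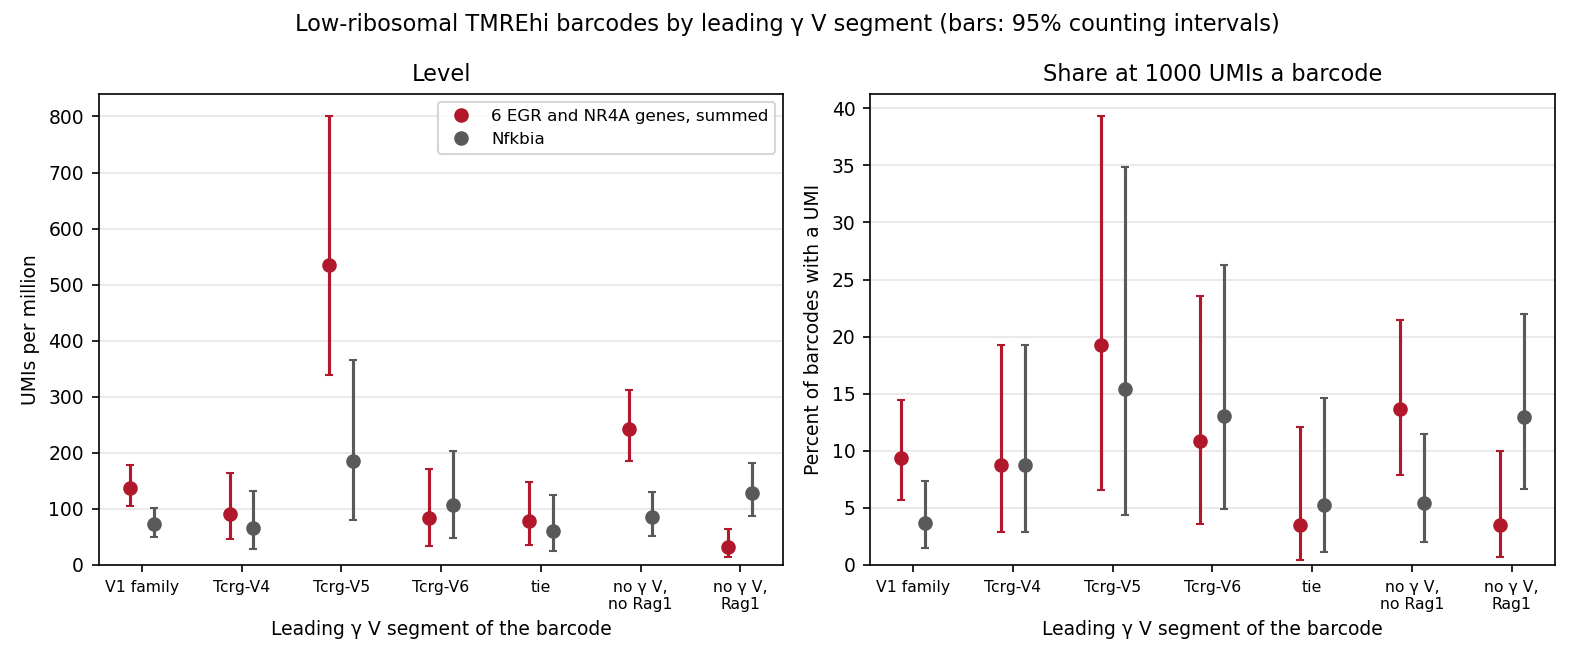
Low-ribosomal TMREhi barcodes by leading γ V segment: left, CPM of the 6 EGR and NR4A genes summed (red) and of Nfkbia (grey); right, percent of barcodes with a UMI after drawing 1000 UMIs from each; bars are exact 95% counting intervals. Tcrg-V5 is highest on the left at 534 CPM with a wide interval, and barcodes with Rag1 and no γ V UMI are lowest at 32.2.

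Irf4 was near the limit of detection, with 4 UMIs in 4 retained TMREhi barcodes and 0 in TMRElo. In the low-ribosomal class it had 3 UMIs against 1, and no comparison was possible. Irf8 had 10 UMIs in low-ribosomal TMREhi barcodes (7.62 CPM) and 6 in TMRElo barcodes (44.5, 16.3–96.8), 5.83-fold higher in TMRElo (1.74–17.7). Of those 6 TMRElo UMIs, 4 were in 1 barcode without a γ V UMI. Without the barcode with the most Irf8 in each library the counts were 8 and 2, and in barcodes with a γ V UMI 9 and 2, which left it 1.69-fold higher in TMRElo (0.177–8.15). In high-ribosomal barcodes it had 30 UMIs against 3, a TMRElo level 3.46-fold higher (0.677–11.1).

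Part of the TMREhi Irf8 signal lay in barcodes with macrophage RNA. Among TMREhi barcodes with at least 500 genes, 4 held between 66 and 260 UMIs of 6 macrophage genes (Lyz2, Csf1r, Adgre1, Mpeg1, C1qa and C1qb), against at most 7 in any other barcode. These 4 had at most 1 UMI of the γδ T cell markers, and all 4 had Irf8, with 11 of the 40 Irf8 UMIs (27.5%) and 8 in a single barcode. The other 27 barcodes with Irf8 held at most 2 UMIs each, and 26 of them had γδ T cell marker UMIs. TMRElo had no barcode with such a macrophage count. Without the macrophage barcodes, retained Irf8 was 19 UMIs against 3, and its direction was unchanged.

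Of the IκB genes, Nfkbid met the rule for a call in the low-ribosomal class and Nfkbia did not. Nfkbid had 20 UMIs in TMREhi, each in a separate barcode (15.2 CPM, 9.31–23.5), and 11 in 8 TMRElo barcodes (81.5, 40.7–146), 5.35-fold higher in TMRElo (2.31–11.7). Nfkbia had 119 UMIs in 103 TMREhi barcodes (90.7 CPM, 75.1–108) and 21 in 13 TMRElo barcodes (156, 96.3–238), 1.72-fold higher in TMRElo (1.02–2.74). Between barcodes led by the V1 family alone (206 and 56), Nfkbid stood at 22.6 and 137 CPM, 6.03-fold higher in TMRElo (2.17–16.5). Nfkbia stood there at 72.5 and 213 CPM, 2.93-fold higher in TMRElo (1.45–5.66). Over all low-ribosomal barcodes with a γ V UMI its interval included 1 (1.84-fold higher in TMRElo, 0.995–3.22). In the Tcrg-V4 group Nfkbia had 8 UMIs in TMREhi and 1 in TMRElo, a TMREhi over TMRElo ratio of 1.40 (0.188–62.2). Without the barcode with the most Nfkbia in each library, its low-ribosomal log2 ratio (TMREhi over TMRElo) went from -0.77 to -0.33. The share of V1 family barcodes with Nfkbia was 13.1% (8.82–18.5) in TMREhi and 12.5% (5.18–24.1) in TMRElo. These are full-depth shares at unlike median depths of 1973 and 1051 UMIs, so they do not compare levels. Of the 14 TMRElo UMIs, 6 were in 1 barcode. Among retained barcodes no difference was detectable for either gene: Nfkbia stood at 82.3 and 105 CPM, a ratio of 0.786 (0.431–1.60), and Nfkbid had 42 UMIs against 1.

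By the rule for a call, 3 of the 7 members at 20 CPM or more in the low-ribosomal class were lower in TMREhi (Egr3, Irf8 and Nfkbid) and 0 were higher. All 3 reached 20 CPM in the mean only through TMRElo, the library in which they were higher, so their count is no measure of the 10 genes. Over the 7240 genes at that level, 8.9% were called lower and 7.51% higher. Of the 3 calls, only Nfkbid remained when barcodes without a γ V UMI were left out (16 UMIs against 9; 4.27-fold higher in TMRElo, 1.66–10.3). When the barcode with the most UMIs of each gene was left out in each library, 1 of the 3 calls was left. No call was left when at most 10% mitochondrial UMIs was required as well, which left counts of 1 or 0 for Nfkbid and Irf8. Markers of αβ thymocytes moved with this comparison (2653 and 1786 CPM), and their part in it was not tested beyond the counts in barcodes with a γ V UMI.

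The other NF-κB genes leaned the same way. Of 11 NF-κB subunits and regulators, 8 reached 20 CPM in low-ribosomal barcodes, and all 8 had the lower value in TMREhi. Of all 7240 genes at that level, 3938 had the lower value. Among the 8, 4 were called lower, against 8.9% of all genes. Called lower in TMREhi were Nfkbiz, another nuclear IκB protein (28 UMIs and 10; 3.47-fold higher in TMRElo, 1.51–7.37), Tnip1, a partner of the deubiquitinase A20 (53 and 12; 2.20-fold, 1.07–4.17), and Rel, the c-Rel subunit (93 and 20; 2.09-fold, 1.22–3.42). Nfkb1, the p105 precursor, was also called (165 and 34; 2.00-fold, 1.34–2.91). Tnfaip3, which encodes A20, stood at 94.5 and 96.3 CPM. Nfkb1 and Tnfaip3 were named after their values were seen. The list's median log2 ratio, TMREhi over TMRElo on CPM plus 1, was -1.01, against -0.09 over all genes at that level. In barcodes with a γ V UMI the list's median was -0.96. Among retained barcodes the list had 1 gene with the higher and 4 with the lower value in TMREhi, and 3726 of all 5980 genes had the lower. The median there was -0.85 against -0.34 over all genes.

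Of 5 other IRF genes at that level, 0 had the higher and 5 the lower value in low-ribosomal TMREhi barcodes (median log2 ratio -1.14, against -0.09 over all 7240 genes, of which 3938 had the lower value). Irf7 (12 UMIs and 6; 4.86-fold higher in TMRElo), Irf9 (49 and 12; 2.38-fold, 1.15–4.54) and Irf2 (136 and 31; 2.22-fold, 1.45–3.29) were called lower, as were 8.9% of all genes. Irf7 reached 20 CPM only through TMRElo. In barcodes with a γ V UMI the median was -0.78. Of the EGR cofactors, the co-repressor gene Nab1 was called lower in TMREhi (61 UMIs and 15; 2.39-fold higher in TMRElo, 1.26–4.26) and Egr4 was not detected.

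**Figure D5:**
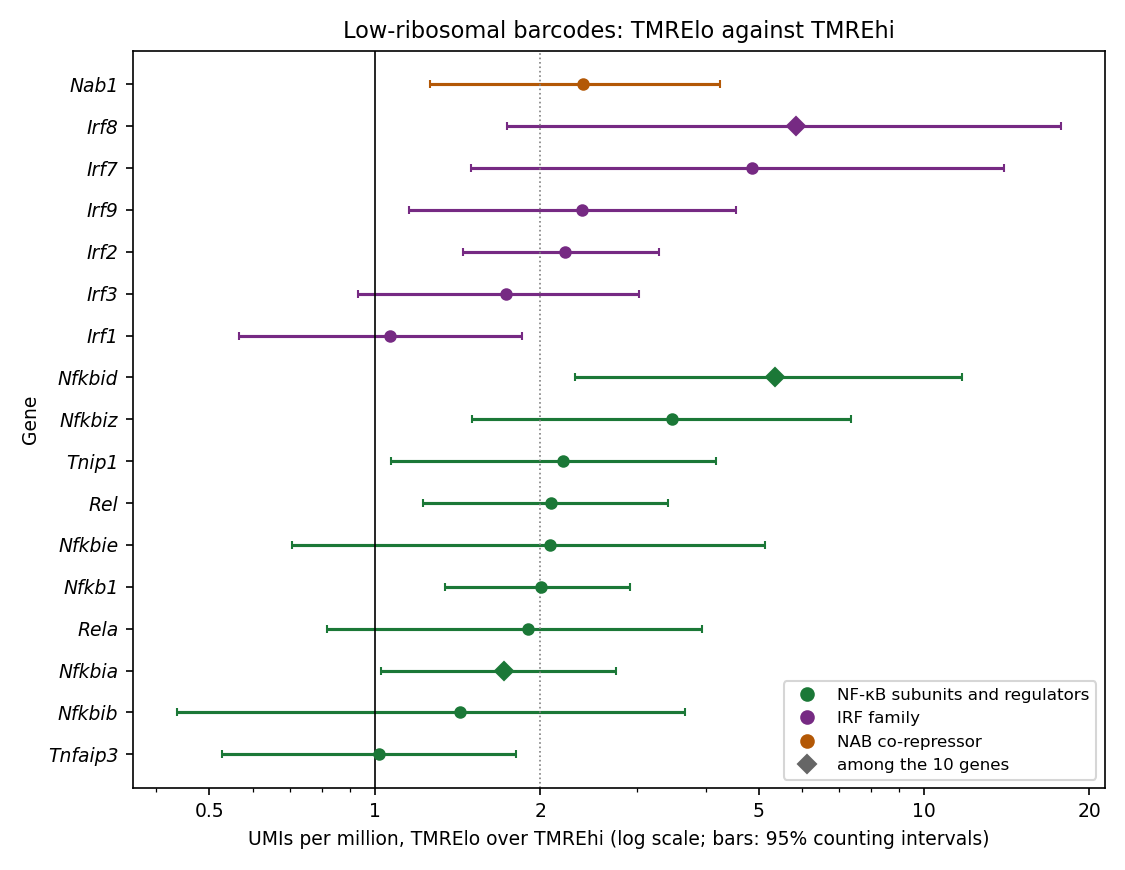
Ratio of CPM, TMRElo over TMREhi (log axis), in low-ribosomal barcodes for NF-κB genes (green), IRF genes (purple) and Nab1 (orange) at 20 CPM or more; diamonds are among the 10 genes, bars are 95% counting intervals, and the dotted line marks 2-fold. All values lie at or above 1, from Tnfaip3 at 1.02 to Irf8 at 5.83.

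Genes known to be induced by the T cell receptor were split in direction in the low-ribosomal class and mostly lower in TMREhi in the others. Most of all genes were lower in TMREhi there too. Of 36 fixed by name, 25 reached the level in low-ribosomal barcodes, 10 with the higher and 15 with the lower value in TMREhi. The median log2 ratio was -0.07, against -0.09 over all 7240 genes, of which 3938 had the lower value. Among retained barcodes 7 had the higher and 19 the lower value in TMREhi, and 3726 of all 5980 genes had the lower. The median was -0.84 against -0.34 over all genes. Of the list, 1 was called higher and 7 lower, against 3.76% and 17.6% of all genes. Among high-ribosomal barcodes 8 were higher and 16 lower, and 3225 of all 5557 genes were lower. The median was -0.44 against -0.17 over all genes. In low-ribosomal barcodes 3 of the genes were called higher in TMREhi and 2 lower, against 7.51% and 8.9% of all genes. Higher were Pdcd1, the gene of the inhibitory receptor PD-1 (123 UMIs and 1), Cd6 (100 and 1) and Cd5, a receptor that dampens receptor signals (137 and 3, a ratio of 4.70, 1.57–23.1). Among retained and high-ribosomal barcodes only Pdcd1 was called higher. Lower in the low-ribosomal class was Xcl1, a chemokine gene (245 and 98, 3.89-fold higher in TMRElo, 3.05–4.94). So was Tnfrsf9, the gene of the co-stimulatory receptor 4-1BB (52 and 20, 3.74-fold higher in TMRElo), named after its values were seen. Among 16 genes of the proximal receptor cascade 5 had the higher and 11 the lower value in low-ribosomal TMREhi barcodes. Their median was -0.48, against -0.09 over all genes of that class. Genes of the general early response, which dissociation of a tissue can also raise, were split 7 and 7 in that class and summed to 2456 and 2586 CPM.

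At 1000 UMIs per barcode, other genes of the receptor response were looked for beside the EGR and NR4A genes in low-ribosomal TMREhi barcodes, 53 with any of the 6 and 525 without. Of 20 receptor-induced genes seen in at least 20 barcodes, 16 were found in a larger share of the barcodes with an EGR or NR4A UMI, as were 2566 of all 5386 such genes (47.6%). Myc stood in 12 of 53 (22.6%, 12.3–36.2) against 6.86% (4.85–9.37), and Xcl1 in 12 of 53 against 7.05% (5.01–9.58). These 2 had intervals that lay apart, against 0.446% of all genes. In a second random draw 12 of 19 such genes had the larger share, none had intervals apart and 0.522% of all genes did, so neither gene's difference was seen in both draws. In high-ribosomal barcodes 4 of 10 such genes had the larger share in the first draw, 6 of 8 in the second and 8 of 16 at 2000 UMIs. The αβ thymocyte markers went the opposite way in both draws: 0 of 8 were found in a larger share of the barcodes with an EGR or NR4A UMI.

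By likeness of pattern over 266 retained TMREhi barcodes thinned to 2000 UMIs, the summed EGR and NR4A UMIs lay closest to Id3 (Pearson r of 0.32), the immediate early gene Ier2 (0.30), Tmem57 (0.27), Cab39 (0.27) and the phosphatase gene Dusp2 (0.26). Id3 was detected in 23 of the 32 barcodes with an EGR or NR4A UMI and in 115 of 266 in all. For Egr1 alone the closest were Ier2 (0.33), Id3 (0.29) and Cab39 (0.27). For Nfkbia they were D10Jhu81e (0.26), Pla2g16 (0.22) and Nedd8 (0.21), none of which was on the other lists. The points are cells of 1 library thinned to 1 depth, the correlations are weak, and at 1000 UMIs 0 of the 5 genes closest to the sum were the same.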

How the data were processed

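The deposited matrices hold UMI counts per gene and barcode, made by the authors with Cell Ranger 3.0 on the mouse build mm10, per the submitters' processing notes (version 3.0.2 per the file headers). The annotation release and the settings that told cells from empty droplets are not stated in the labels. There is 1 library per group, so levels are summed counts per 1000000 UMIs, with exact 95% intervals for counting error and no p-values. Retained barcodes had at least 500 genes and at most 10% mitochondrial UMIs. The ribosomal classes were split at 15%. Depth ranged from 688 to 11730 UMIs per retained TMRElo barcode and from 601 to 27747 in TMREhi, and the 5 deepest TMRElo barcodes held 44.0% of that library's retained UMIs. Shares and pairs of genes were compared after drawing 1000 UMIs per barcode without replacement (again with a second seed, and with 2000). A call needed a ratio of at least 2, at least 20 CPM in the mean of both libraries, and an interval without 1. Log2 ratios used a pseudocount of 1. Scrublet (in scanpy 1.11.5) called 13 of 317 and 10 of 34 retained barcodes as doublets, which were kept.

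The members and gene lists were chosen with earlier results of these data known. Named were the 10 genes, up to 4 genes per list by size of ratio, and the genes most alike in pattern (5 for the EGR and NR4A sum, 3 per gene), by Pearson r of log2(1 + UMIs). The split by Rag1, the macrophage count, the limits to γ V barcodes and to barcodes other than the highest within the low-ribosomal class, and the genes named beside EGR and NR4A UMIs were chosen after seeing the data. Gene positions are from GENCODE vM21 on GRCm38 and promoters from RefSeq on GRCm38.p6, which held no entry for 2 of the genes. Intervals came from scipy 1.17.1 and figures from matplotlib 3.10.9 (pandas 2.3.3 and numpy 2.4.6 under Python 3.11.15), and the ratio and interval code was tested on simulated data.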

Additional observations from a re-analysis of the deposited data

How the results depend on the processing

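Of 361 alternative values, 309 stayed within the limit set for their kind, 49 moved beyond it and 3 called values reversed. For ratios, levels and shares the limit was the counting interval of the main value (a value near 0 may still turn sign). Tallies of genes were allowed a fixed fold, and list medians the standard deviation of log2 ratios over the list's genes. The genes most alike in pattern needed a fixed number in common. The causes were not tested beyond the counts given. Of the 10 genes, 7 had the higher and 3 the lower value in TMREhi among retained barcodes. Of the 7, Egr3, Nr4a1, Nr4a2, Nr4a3 and Irf4 had 0 TMRElo UMIs and a TMREhi level below 28.5 CPM. These tallies thus count values, and not differences detectable at this depth. The higher count was 2 with all deposited barcodes, with no mitochondrial limit and with low-ribosomal barcodes only, 3 with low-ribosomal barcodes that had a γ V UMI, and 4 with low-ribosomal barcodes without the barcode with most UMIs of each gene. The lower count in those 5 settings was 8, 8, 8, 7 and 6. It was 1 under the stricter filter and 1 without barcodes that had Rag1, Rag2, Cd4, Cd8a or Cd8b1 UMIs. Within the low-ribosomal class, the 3 genes called lower became 0 with at most 10% mitochondrial UMIs, 1 with a γ V UMI required and 1 without the top barcode, and the 8 with a lower value became 3 with the mitochondrial limit, which leaves few barcodes. The log2 ratio of Egr2 turned to 2.14 under the stricter filter (9 UMIs against 0) and to 2.83 in low-ribosomal barcodes with a γ V UMI (5 against 0). That of Irf8 turned to 4.33 in low-ribosomal barcodes with at most 10% mitochondrial UMIs (1 against 0). In the low-ribosomal class the log2 ratio of Nr4a1 also turned, from -0.38 to 2.04, without the top barcode. With at most 10% mitochondrial UMIs it was 4.33 (1 UMI against 0), that of Egr1 turned from 1.21 to -2.18 (1 against 2) and that of Nfkbia from -0.77 to 1.07 (10 against 2). Among retained barcodes that of Nfkbia turned from -0.34 to 0.30 under the stricter filter, 0.44 without the αβ lineage UMIs and 0.22 without the top barcode. The share of low-ribosomal Nr4a1 barcodes with Egr1 was 6 of 12 (50%) in the second draw. No paired analysis was possible because each group has 1 library. Leaving out replicates was likewise not possible. In TMRElo 3 UMIs make 28.5 CPM among retained barcodes. For a gene below that level in TMREhi and at 0 in TMRElo, the direction was thus not a detectable difference.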
